A study of Mus musculus with 85 samples.

Results

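The cells described are the 28 E10.5 hematopoietic cluster cells of a series of 85 single cells, divided by the mRNA of the transcription factor Gata1. The rule was a Gata1 value above log2 5 for a cell with Gata1 and a value at or below it for a cell without. It gave 10 cells with Gata1 and 18 without. The values that chose the groups are described here without a test, and all comparisons concern other genes.

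The E10.5 cluster cells came from the caudal portion of wild type mouse embryos and were sorted as c-Kit+CD31+CD45+SSEA1- cells. The same gate was used for the 16 wild type E12.5 cluster cells, which came from the aorta-gonad-mesonephros region. The 27 E14.5 HSC (hematopoietic stem cells) were wild type fetal liver cells sorted as CD150+CD48-, c-Kit+Sca-1+Lin- and also Mac-1+. The 7 E10.5 HEC (hemogenic endothelial cells) and 7 E10.5 EC (endothelial cells) came from the caudal portion of eR1-GFP embryos. Both were CD31+Ter119-CD45-CD41-, the HEC positive and the EC negative for the eR1-GFP reporter, in which an enhancer of Runx1 drives GFP. Each cell was sorted singly after collagenase digestion, and its amplified polyA RNA was hybridised to 1 array. The unit throughout is the deposited log2 expression value, and log2 5 was taken as the background limit. The labels tie no cell to an animal or litter, so a population is treated as 1 sample. Differences are therefore given by size, with the standard deviation (SD) over cells, and no test was made.

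Gata1 encodes a zinc-finger factor that binds GATA motifs and is required for red cell, megakaryocyte, mast cell and eosinophil development. It works with the cofactor Fog1 (encoded by Zfpm1) and switches on targets such as Klf1, while it and the myeloid and lymphoid factor PU.1 (encoded by Spi1) are known to oppose each other. Hematopoietic clusters are groups of blood cells that bud from the embryonic arteries and hold both progenitors and precursors of stem cells.

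Gata1 itself was read by 1 probe set. In the 10 cells with Gata1 it was at 12 in cell 3, 8.74 in cell 5, 11.66 in cell 8, 11.67 in cell 10, 9.10 in cell 11, 10.64 in cell 13, 11.72 in cell 14, 11.61 in cell 15, 10.67 in cell 16 and 10.85 in cell 19. In the 18 other cells it lay between 2.26 and 2.32. The cell nearest to the limit from above was thus at 8.74 and the nearest from below at 2.32, and limits of log2 4 or 8 chose the same cells. The share with Gata1 was 35.7% (95% interval 18.6 to 55.9%, exact Clopper-Pearson, for the counting of cells alone). At E12.5 Gata1 was above background in 6 of 16 cells, or 37.5% (15.2 to 64.6%). It was not above background in any of 7 EC or 7 HEC (interval to 41.0% for each), nor in any of 26 fetal liver HSC (to 13.2%), 2 nearly identical arrays of which were averaged.

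The cells with Gata1 carried more signal. They had 9355 to 11487 probe sets above background (median 10627), against 8244 to 11028 (median 9778) in cells without, so the ranges overlap widely. The control probe sets Dap and Phe were both at the value shared across arrays in 7 of 10 and 15 of 18 cells. Over 9139 measured genes, meaning those above background in at least 3 of the 28 cells, the median difference between the groups was 0.34. Moving every cell to the same median signal brought this median to 0.03. The part of the signal difference in single genes was not tested, but 13 of the cells without Gata1 lay within the probe-set range of the cells with it, and differences against these 13 are given for the leading genes. The gate genes Kit and Ptprc (CD45) were above background in 10 and 8 of the 10 cells with Gata1 and in 17 and 18 of the 18 without. Ptprc was lower by 3.59 with Gata1. Xist, the X-inactivation RNA, was above background in 4 of 10 and 10 of 18 cells, and Gata1 is X-linked.

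**Figure D1:**
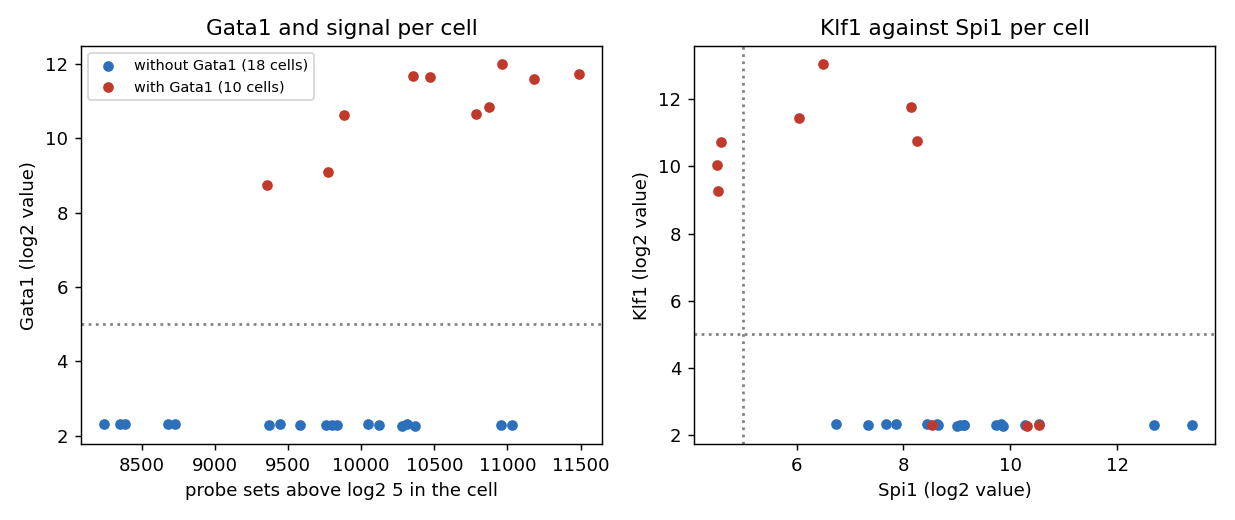
Left, the Gata1 log2 value of each E10.5 cluster cell against the number of probe sets above background in that cell; right, Klf1 against Spi1 (both log2 values) in the same cells, with dotted lines at the background limit of log2 5. Red points are the 10 cells with Gata1 and blue points the 18 without: Gata1 leaves a gap between 2.32 and 8.74, and Klf1 is above background in 7 red and 0 blue points.

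Taking a difference of 2 log2 units or more as a call, 873 of the 9139 genes were higher in cells with Gata1 (9.55%) and 239 lower (2.62%). Of the calls 78.5% were therefore on the higher side. With cells moved to the same median signal 596 were higher and 363 lower (62.1% higher), and with quantile normalization 320 and 257 (55.5%). Against the 13 cells without Gata1 in the same probe-set range, 658 were higher and 363 lower (64.4%). A gene at background in every cell of either group could count as measured through the other group. The shares called, in lists and over all genes, therefore lean partly on this filter.

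Klf1, the erythroid Krüppel-like factor, had the largest positive difference of the named genes. Its log2 value averaged 8.39 ± 4.34 (SD, n = 10 cells) with Gata1 and 2.30 ± 0.02 (n = 18) without, a difference of 6.10. Klf1 was above background in 7 of 10 cells with Gata1, between 9.27 and 13.06, and in 0 of 18 without, where it never exceeded 2.33. Cells 5, 10 and 14 had Gata1 but Klf1 at background. The difference was 5.34 after quantile normalization and 6.11 against cells in the same probe-set range.

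Among Gata1's partners and other blood factors, 5 of 33 measured genes were called higher (15.2% against 9.55% of all genes) and 4 lower (12.1% against 2.62%). Gfi1b, a repressor needed for red cell and megakaryocyte formation, was above background in 9 of 10 cells with Gata1 (2.49 to 12.11, median 10.20) and 8 of 18 without (2.51 to 10.54, median 2.66). Its difference was 4.32 (4.27 against cells in the same probe-set range), and cell 14 alone of the 10 lacked it. Lmo4, a LIM-domain adaptor, was at 3.50 to 13.37 (median 11.82) with Gata1 and at 2.56 to 11.16 (median 3.78) without. Zfpm1 was higher by 2.23, and by 1.91 without cell 19 or with cells moved to the same median, 1.11 with the mean over its probe sets and 0.63 after quantile normalization. Gata2, which precedes Gata1 in progenitors, was present in 10 of 10 and 14 of 18 cells. Its difference of 2.07 dropped below 2 when any of 8 single cells was left out (to 1.67 without cell 2). The core partner Tal1 differed by 1.5, Runx1 by -0.43 and Myb by 0.71.

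On the lower side were Irf8, Spi1, Lmo2 and Ets1. Spi1 was above background in all 18 cells without Gata1 (6.74 to 13.40, median 9.09) and in 7 of 10 with it (4.52 to 10.54, median 7.32). The mean difference was -2.14, or -3.08 after quantile normalization, and the ranges overlap. It lay between -1.84 and -1.94 when cell 11, 16, 19, 20 or 27 was left out. The 3 cells with Gata1 and no Spi1 above background were 11, 16 and 19, and each had Klf1. Lmo2, a bridging protein of the Gata1 and Tal1 complex, was lower by 2.26 on the log2 scale in cells with Gata1, or by 1.43 without cell 15, where it was at 2.63. Ets1 differed by -2.14, and by -1.81 to -1.86 without cell 6, 18, 24 or 26.

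Sequences 5' of the start are shown for 5 of the genes higher with Gata1, because each holds a match to the letters GATA factors are known to favour. They are the 250 bases before the RefSeq start (assembly GRCm38.p6), 5' to 3' on the gene's strand. Capitals mark matches to AGATAA or TGATAA or, for the other strand, TTATCT or TTATCA. The windows are chr8:84901732-84901981 (+) for Klf1, chr2:28621983-28622232 (-) for Gfi1b, chr17:40810899-40811148 (+) for the red cell ammonia channel subunit gene Rhag, chr16:30310782-30311031 (-) for the platelet glycoprotein gene Gp5, and chr3:20242182-20242431 (-) for the mast cell carboxypeptidase gene Cpa3.
Klf1: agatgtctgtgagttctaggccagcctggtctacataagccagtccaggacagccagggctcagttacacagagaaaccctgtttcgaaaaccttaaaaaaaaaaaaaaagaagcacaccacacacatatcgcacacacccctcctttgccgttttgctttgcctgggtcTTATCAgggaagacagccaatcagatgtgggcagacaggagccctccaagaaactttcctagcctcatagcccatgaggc
Gfi1b: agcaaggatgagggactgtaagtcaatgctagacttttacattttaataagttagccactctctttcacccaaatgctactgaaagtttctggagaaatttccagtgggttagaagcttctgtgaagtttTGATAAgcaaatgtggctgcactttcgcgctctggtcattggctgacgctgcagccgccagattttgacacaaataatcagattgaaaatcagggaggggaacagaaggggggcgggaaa
Rhag: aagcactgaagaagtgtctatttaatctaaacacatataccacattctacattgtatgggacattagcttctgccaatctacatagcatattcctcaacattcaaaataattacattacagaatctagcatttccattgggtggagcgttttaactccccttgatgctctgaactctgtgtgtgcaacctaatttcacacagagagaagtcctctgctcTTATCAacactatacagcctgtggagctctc
Gp5: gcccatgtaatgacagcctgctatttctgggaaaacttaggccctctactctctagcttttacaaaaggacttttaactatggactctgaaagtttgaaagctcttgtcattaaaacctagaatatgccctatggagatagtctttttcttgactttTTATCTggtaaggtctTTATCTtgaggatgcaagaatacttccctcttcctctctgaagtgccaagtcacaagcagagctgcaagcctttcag
Cpa3: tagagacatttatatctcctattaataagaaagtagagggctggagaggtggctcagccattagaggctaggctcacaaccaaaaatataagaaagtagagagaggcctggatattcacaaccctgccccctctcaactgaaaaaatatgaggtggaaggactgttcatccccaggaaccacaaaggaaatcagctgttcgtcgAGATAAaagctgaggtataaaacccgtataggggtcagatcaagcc

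The match began at position -80 from the start in Klf1, -120 in Gfi1b, -31 in Rhag and -46 in Cpa3, while Gp5 had a pair at -93 and -77. Of all 32851 RefSeq promoters of this length, 5452 (16.6%) held such letters. Called higher in the erythroid, heme and iron, red cell membrane, megakaryocyte and mast lists were 30 genes. Of these 26 had RefSeq promoters, and 10 of their 31 promoters (32.3%) held a match. Called lower in the HSC-associated, myeloid and lymphoid lists were 18 genes. Of these 12 had RefSeq promoters, and 1 of their 19 promoters (5.26%) held a match. The 2 sets come from different lists, so their shares do not set higher against lower genes of the same lists. Of the 15 genes with the largest positive differences, 11 had RefSeq promoters. Among these 2 of 15 promoters (13.3%) held a match, below the share over all promoters. For the 15 most negative it was 1 of 21 (4.76%). Because the genes were picked by their differences, these shares are a description. A match is not a bound site, and its absence says only that these letters are not in this window.

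Of the erythroid regulators and receptors 20 of 25 genes on the array were measured. Of these 9 were called higher (45.0% against 9.55% of all genes) and 1 lower (5.00% against 2.62%), and their median difference was 1.72 against 0.34 over all genes. The median was 1.40 with cells moved to the same median and 1.89 against cells in the same probe-set range. The 9 were Klf1, Gfi1b, Zfpm1, Mfsd2b, Foxo3, Stat5a, Car2, Mt2 and Icam4. Mfsd2b, which exports sphingosine-1-phosphate from red cells and platelets, was above background in 7 of 10 and 3 of 18 cells and higher by 4.25. Stat5a, which carries the erythropoietin signal, was at 5.04 to 11.32 (median 9.97) with Gata1 and 2.28 to 9.86 (median 7.21) without. Car2, a carbonic anhydrase, was present in all 10 and in 13 of 18, and higher by 3.14. Icam4, a red cell adhesion protein, was present in 5 of 10 and 1 of 18. The gene called lower was Bcl2l1, which encodes the survival factor Bcl-xL, at -2.28. Nfe2 differed by 1.29 and the transferrin receptor Tfrc by 0.37. Epor, the erythropoietin receptor, was above background in 0 of 28 cells.

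Heme and iron genes had a median difference of 0.46 (0.14 with cells moved to the same median), and 7 of 22 measured members were called higher (31.8% against 9.55% of all genes) and 0 lower. The 7 included 4 enzymes of heme synthesis, Alad (2.39), Cpox (2.51), Ppox (2.87) and the ferrochelatase Fech (2.62). The others were the mitochondrial carriers Abcb6 (4.05) and Abcb10 (3.01) and the iron sensor Tfr2 (3.21). None of the 7 kept the call under every setting run. Ppox was at 1.45 and Abcb6 at 1.77 after quantile normalization, and with the mean over probe sets Alad was at 1.05, Abcb10 at 1.02 and Ppox at 0.92. Tfr2 was present in cells 3, 8, 15 and 16 of the group with Gata1 and in 0 of 18 without. Alas2, which encodes the erythroid form of the first enzyme, was above background in 2 of 10 and 0 of 18 cells, too few to count as measured.

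Of 19 red cell membrane genes on the array 7 were measured, and 8 were above background in no cell, among them the anion exchanger Slc4a1 and ankyrin Ank1. Of the 7 measured, 1 was called higher (14.3% against 9.55% of all genes) and 1 lower (14.3% against 2.62%). Rhag was present in 5 of 10 cells with Gata1 (up to 11.17) and 0 of 18 without (up to 2.32), with a difference of 3.01. Gypc, Add1, Slc2a1, Acp1 and Bsg were above background in all 10 and in 15 to 18 of the 18, and none of them was called. Cd47 was lower by 2.57, or by 1.78 without cell 15. The globins Hba-a1, Hba-a2, Hba-x and Hbb-b2 were above background in 0 of 28 cells. The embryonic globin Hbb-bh1 was at 8.30 in cell 8, 10.76 in cell 15 and 9.73 in cell 16 and at background in the rest, while Hbb-y was above background in 2 of 10 and 2 of 18 cells. The Hbb-bh1 difference of 2.16 dropped to 1.74, 1.47 and 1.58 without each of these cells in turn.

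**Figure D2:**
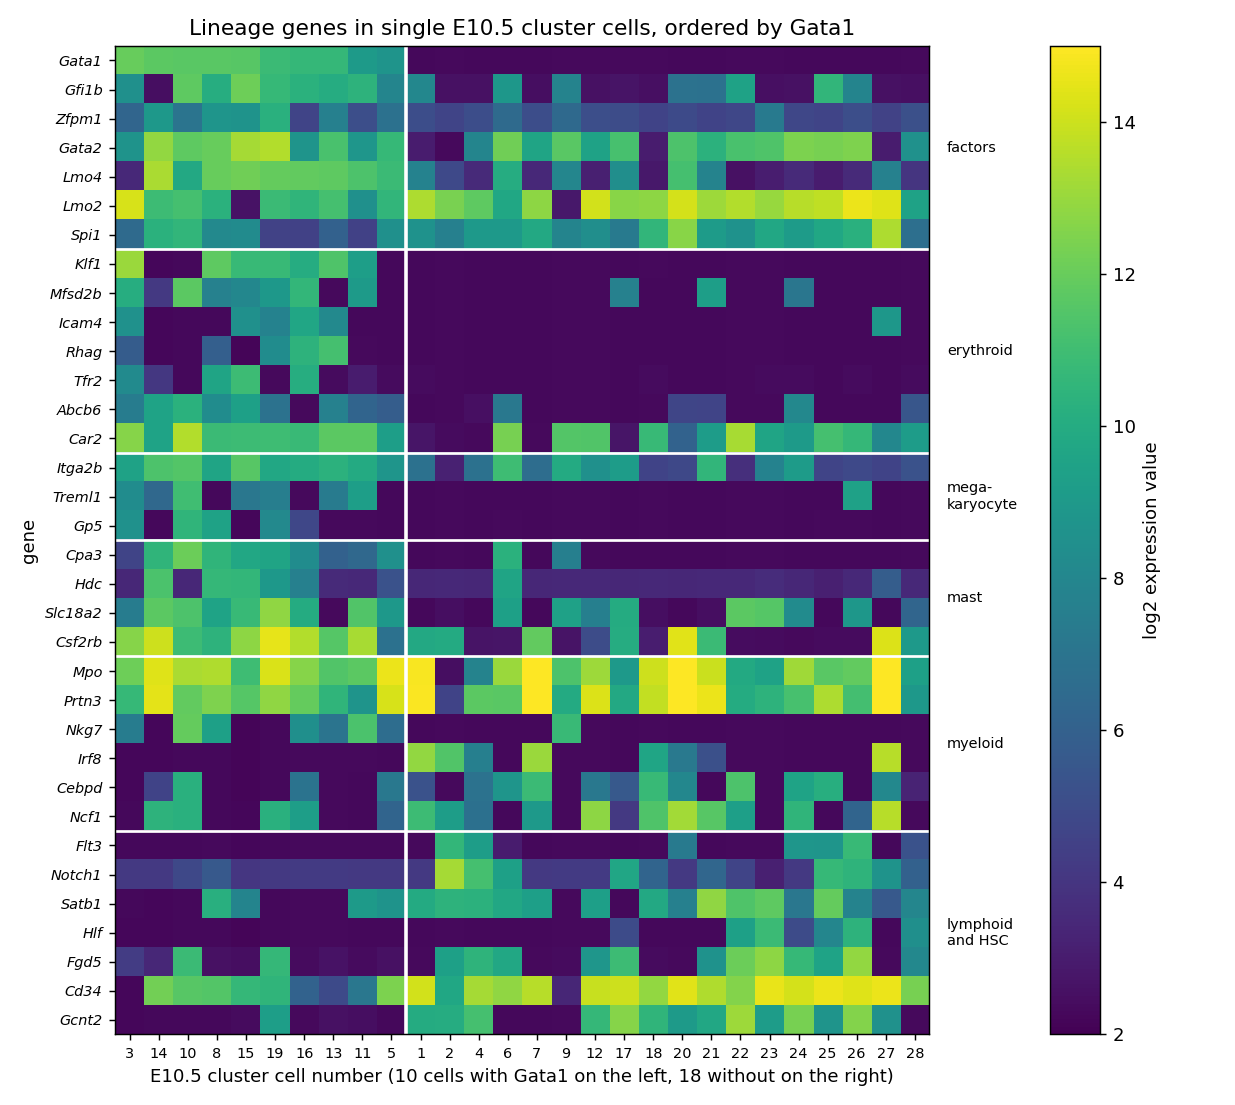
Log2 expression values (colour) of lineage genes (rows) in the 28 E10.5 cluster cells (columns, by cell number). The 10 cells with Gata1 are on the left, ordered by Gata1, and the 18 without are on the right in order of cell number. Klf1, Rhag, Tfr2 and Gp5 are above background only on the left and Irf8, Flt3 and Hlf only on the right, while Mpo and Prtn3 are on in most cells of both groups.

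The megakaryocyte genes did not shift as a group. Their median difference was 0.18 over 29 measured of 40 genes on the array, and it was -0.13 with cells moved to the same median and -0.31 after quantile normalization. Higher were 3 of the 29, or 10.3% against 9.55% of all genes. Lower were 2 of the 29, or 6.90% against 2.62% of all genes. These were Mef2c and F13a1 (-2.11, and -1.65 to -1.94 without cell 6, 17, 20, 21 or 27). Itga2b, the CD41 integrin chain, was above background in all 10 cells with Gata1 (8.80 to 11.61, median 9.97) and in 11 of 18 without (3.18 to 10.94, median 6.75). Treml1, a platelet granule receptor, was present in 7 of 10 and 1 of 18 cells and averaged 6.39 ± 3.10 (SD, n = 10) against 2.69 ± 1.69 (n = 18). Gp5 was present in cells 3, 8, 10 and 19 and in 0 of 18 without Gata1, with a difference of 2.99. The platelet chemokine gene Pf4 (-0.92) and the glycoprotein genes Gp9 (0.42) and Gp1bb (1.68) did not reach a call. Tubb1, the platelet tubulin gene, was above background in 1 of 10 and 0 of 18 cells.

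Mast cell and basophil genes stood highest of the 5 main lists. Of 33 genes on the array 15 were measured, of which 10 were called higher (66.7% against 9.55% of all genes) and 0 lower, and the median difference was 2.90. It was 2.83 against cells in the same probe-set range and 1.76 after quantile normalization. Without the filter it was 0.044, with the 18 other members, each above background in at most 2 of 28 cells, counted in. Cpa3 averaged 8.65 ± 2.32 (SD, n = 10) against 3.03 ± 2.20 (n = 18), above background in 9 of 10 and 2 of 18 cells, and differed by 5.62 (5.75 against cells in the same probe-set range). The 2 cells without Gata1 that had Cpa3 were cell 6 (10.28) and cell 9 (7.60), and cell 3 had Gata1 with Cpa3 at 4.69. Hdc, the histamine-forming enzyme, was present in 6 of 10 and 2 of 18 cells and higher by 2.90. Slc18a2, the vesicular transporter of histamine and other amines, was present in 9 of 10 and 9 of 18 and higher by 3.85.

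Other mast-list genes called higher were Rab44 (3.29), Ndst2 (3.17), which acts in heparin synthesis, Alox5 (3.0), a leukotriene-forming enzyme, the adaptor Lat (2.78) and Gata2. After quantile normalization Rab44 was at 1.75, Ndst2 at 1.42, Lat at 1.93, Gata2 at 1.77 and Hdc at 1.76. Of the mast-list genes called higher, only Cpa3, Csf2rb, Slc18a2 and Alox5 kept the call under every setting run. Csf2rb, the shared beta chain of the IL-3, IL-5 and GM-CSF receptors, was at 6.87 to 14.49 (median 12.71) with Gata1 and 2.35 to 14.40 (median 4.01) without. Its mouse paralog Csf2rb2 was higher by 3.39, and since the 2 genes are close in sequence their probes may share signal. The proteases of mature mast cells, Mcpt1, Mcpt2, Mcpt4, Cma1, Tpsb2 and Tpsab1, were above background in 0 of 28 cells, and the IgE receptor genes Fcer1a and Ms4a2 in 1 of 28 each. Siglecf, a sialic-acid receptor best known on eosinophils, was present in 10 of 10 cells with Gata1 (5.91 to 12.05, median 11.12) and 5 of 18 without (2.27 to 11.64, median 2.32). No other eosinophil gene counted as measured, and the granule genes Epx, Prg2 and Prg3 were above background in no cell.

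Of 33 measured myeloid genes 5 were called higher (15.2% against 9.55% of all genes) and 5 lower (15.2% against 2.62%), and the median difference was -0.35 (0.02 when the median over cells was used, 0.35 among cells with both controls at the shared value and -1.0 against cells in the same probe-set range). Of the primary granule genes Mpo and Prtn3 were on in 10 of 10 and 17 of 18 cells each, whereas Elane was on in 0 of 10 and 3 of 18 and Ctsg in 0 of 28. Mpo, myeloperoxidase, was at 10.96 to 14.64 (median 12.99) with Gata1 and 2.49 to 15.05 (median 12.47) without, a difference of 1.23. Prtn3, proteinase 3, differed by -0.06. Higher with Gata1 were Csf2rb, Csf2rb2, Nkg7 (4.13), Fcgr3 (3.80) and Plac8 (3.66). Nkg7, a cytotoxic granule protein gene, was present in 7 of 10 and 1 of 18 cells.

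Irf8, a factor of monocyte and dendritic cell development, was above background in 8 of 18 cells without Gata1, up to 13.60, and in 0 of 10 with it, where the highest value was 2.34. Its mean difference was -3.48, and -4.10 against cells in the same probe-set range. The other myeloid genes called lower were Spi1, Cebpd (-2.26, and -1.97 without cell 22), the oxidase subunit gene Ncf1 (-2.01, under 2 in size without any of 15 single cells) and the haptoglobin gene Hp (-2.07, from 5 of 18 cells, and 0.016 when the median over cells was used). Late neutrophil granule genes Ltf, Ngp and Camp were above background in 0 of 28 cells.

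**Figure D3:**
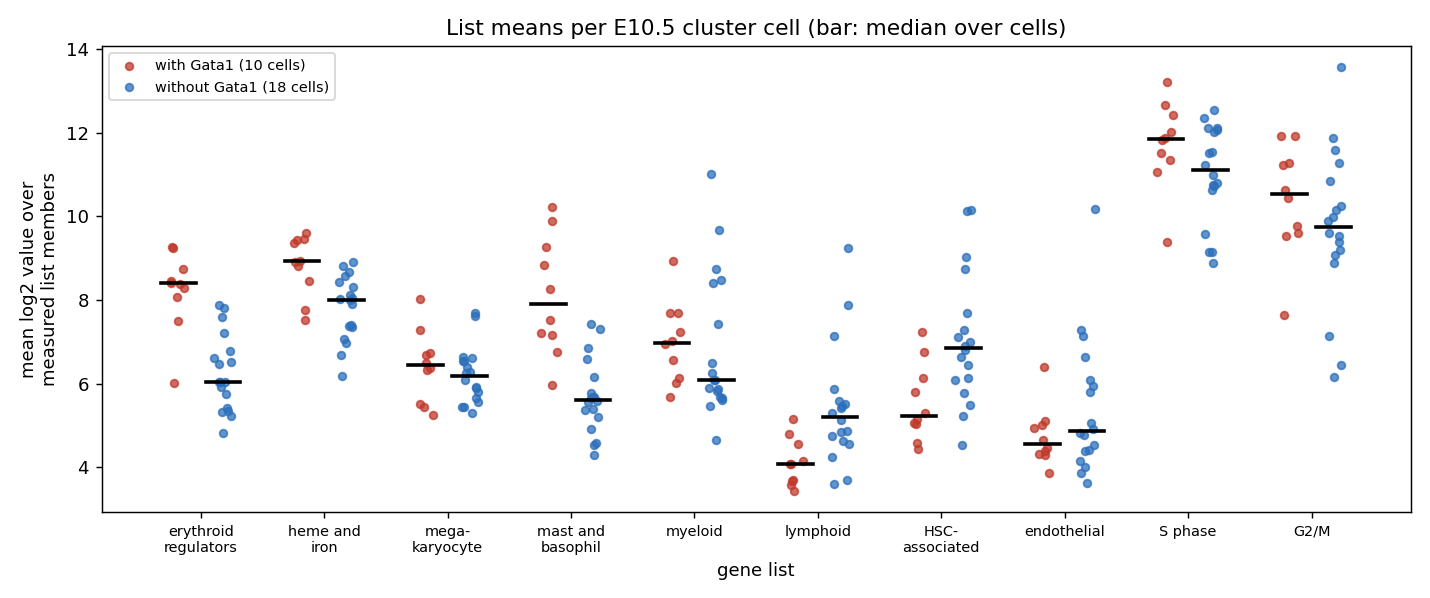
Mean log2 value over the measured members of each gene list (vertical axis) in each E10.5 cluster cell, for 10 lists (horizontal axis). Red points are the 10 cells with Gata1, blue points the 18 without, and bars are medians over cells. The erythroid mean of 8 red cells lies above every blue cell and the mast mean of 6 does, while 6 blue cells lie above every red cell in the HSC-associated mean.

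Of 22 measured genes associated with stem cells 10 were called lower (45.5% against 2.62% of all genes) and 0 higher, and the median difference was -1.59 (-0.07 when the median over cells was used). Cd34, a progenitor sialomucin, averaged 8.93 ± 3.57 (SD, n = 10) with Gata1 and 12.93 ± 2.66 (n = 18) without, and the difference was -4.93 against cells in the same probe-set range. It was at 2.25 in cell 3 and 4.90 in cell 13, below background. Gcnt2, a branching glycosyltransferase, was present in 1 of 10 cells (cell 19) and 14 of 18. Esam (-3.20) and Fgd5 (-3.25), both known from stem cells and endothelium, were each present in 2 of 10 and 12 of 18 cells. The remaining calls were Tgm2 (-3.03), Mmrn1 (-2.93), Mycn (-2.59), the cell cycle inhibitor Cdkn1c (-2.29), the stem cell factor Hlf (-2.29) and Hoxa9 (-2.24). Tgm2, Cdkn1c, Hlf and Hoxa9 were above background in 0 of 10 cells with Gata1 and in 6, 7, 5 and 4 of 18 without. They thus counted as measured through the cells without Gata1 alone, and the list share includes them. Hlf was under 2 in size without cell 23 (-1.92) or 26 (-1.95), and Hoxa9 without cell 4, 23, 24 or 26 (-1.74 to -1.82). Meis1, on in 9 of 10 and 16 of 18 cells, differed by -0.09, and Ctnnal1 by 1.92 in the other direction.

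Lymphoid-associated genes had a median difference of -1.25, with 3 of 8 measured called lower (37.5% against 2.62% of all genes) and 0 higher. Satb1, a chromatin organiser, was present in 4 of 10 and 16 of 18 cells and lower by 3.81. The receptor genes Flt3 (-2.53) and Notch1 (-2.56) were present in 0 and 1 of 10 cells with Gata1 and in 7 and 10 of 18 without. Flt3 thus counted as measured through the cells without Gata1 alone. Of 17 measured cytokine receptors 2 were called higher (11.8% against 9.55% of all genes) and 3 lower (17.6% against 2.62%), with a median of -0.69. The higher ones were Csf2rb and Csf2rb2, which the mast and myeloid counts also include. The lower ones were Flt3, Il6st and Tgfbr2. Il6st, the shared gp130 chain, was present in 0 of 10 and 9 of 18 cells (-3.42) and Tgfbr2 in 5 of 10 and 18 of 18 (-4.71). Endothelial genes had a median difference of -0.89. Of 14 measured, 1 was called higher (7.14% against 9.55% of all genes) and 2 lower (14.3% against 2.62%). Ramp2, partner of the receptor encoded by Calcrl, was present in 0 of 10 and 10 of 18 cells, and Tie1 in 3 of 10 and 13 of 18, while Icam2 was higher with Gata1 by 4.14.

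The 15 largest positive differences ran from 4.85 to 6.10. After Klf1 they were Muc13, Siglecf, Cpa3, Gadd45a, Csf2rb, Lmo4, Tcf19, Mt1, Homer2, Mtfp1, Lgals1, Iffo1, Ikzf2 and Zdhhc3. Muc13, a transmembrane mucin gene, was present in 9 of 10 and 2 of 18 cells (6.05), and so was the stress-response gene Gadd45a (5.62). Mt1, a metallothionein, was at 10.39 to 13.87 (median 13.06) with Gata1 and 2.29 to 14.59 (median 8.64) without. Lgals1, galectin-1, was at 12.45 to 15.84 with Gata1 and 2.29 to 14.51 without. In 0 of the 15 genes were the groups fully apart.

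The 15 largest negative differences ran from -4.19 to -5.95. Mef2c, a MADS-box factor of lymphoid, megakaryocyte and endothelial cells, was at 6.30 to 13.56 (median 11.77) in all 18 cells without Gata1 and at 2.25 to 11.99 (median 3.69) with it, above background in 5 of 10. The actin-binding gene Gsn (1 of 10 and 14 of 18 cells, -5.80) and Marcks (1 of 10 and 14 of 18, -4.91) were among them, with Fscn1 (-4.62), Enah (-4.19) and Lsp1 (-4.21), which also act on the actin cytoskeleton. Ifitm3, an interferon-induced membrane protein gene, and Calcrl were each present in 0 of 10 and 12 of 18 cells. The growth factor gene Igf2 was present in 1 of 10 and 10 of 18. The others were Gcnt2, Ccnd2, Tgfbr2, Stat4, Miga1 and Hpgd. In 0 of the 15 were the groups fully apart.

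The 15 lower genes had to be on in at least 50% of the cells without Gata1, and no HSC or HEC had Gata1 above background. Their counts in HSC and HEC therefore lean on that choice and are a description. The share over all measured genes is not given. Of the 15 lower genes 11 were above background in at least 13 of 26 fetal liver HSC, including Ifitm3 and Calcrl (26 of 26 each) and Igf2 (25 of 26). Of the 15 higher genes this held for 1, Lgals1 (24 of 26), and 4, namely Klf1, Siglecf, Cpa3 and Homer2, were at background in all 26. In HEC Ifitm3, Calcrl, Marcks and Igf2 were present in 7 of 7 cells, and Klf1, Siglecf, Cpa3 and Csf2rb in 0 of 7.

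Several of these genes had probe sets that did not move together. Of the higher 15, 9 had several probe sets, which all reached 2 log2 units in 3 genes and lay within 0.1 of 0 for at least 1 probe set in 4. Of the lower 15, 12 had several, which all reached that size in 0 genes and lay within 0.1 of 0 in 10. Klf1, Cpa3, Siglecf, Gadd45a, Lmo4, Mtfp1, Ifitm3, Stat4 and Lsp1 had a single probe set. Values above are those of the brightest probe set.

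Cells with Gata1 differed among themselves. Klf1 and Mpo were above background together in 7 of 10 cells, Klf1 and Cpa3 in 6, Klf1 and Treml1 in 5, Klf1 and Spi1 in 4 and Klf1 and Gp5 in 3. Klf1 was on in 0 of the 18 others, so none of them could hold these pairs. Of the 3 cells without Klf1, cell 10 had Gfi1b (11.78), Treml1 (11), Gp5 (10.52) and Cpa3 (12.06). Cell 14 had Hdc (11.32), Cpa3 (10.52) and Mpo (14.39) with Gfi1b at background, and the highest mast mean (10.22). Cell 5, with the lowest Gata1, had Mpo at 14.64 and Prtn3 at 14.20 and the lowest erythroid mean of the 10 (6.02). Of the 10 cells, cell 5 also had the fewest probe sets above background (9355) and cell 14 the most (11487). The part of total signal in these list means was not tested. Cell 3, with the highest Gata1 and Klf1 (13.06), had the lowest HSC-associated mean (4.44) of all 28 cells. Cells 15 and 19 had the highest erythroid means (9.26 each), and cell 19 also the highest megakaryocyte mean (8.02).

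The 18 cells without Gata1 were not uniform either. Cell 27 had the highest myeloid mean (11.01), with Irf8 at 13.60 and Mpo at 15.05, and cells 20, 7, 1 and 18 followed (9.69 to 8.41), all with Irf8. Cells 27 and 20 also had the most probe sets above background of the 18 (11028 and 10956). Cells 17 and 26 had the highest HSC-associated means (10.15 and 10.14), and cell 26 had Hlf (10.39) and Hoxa9 (12.33). Cell 2 had Notch1 at 13.24 and Flt3 at 10.62, with Mpo at background (2.49), and the highest lymphoid mean (9.24). Cell 6 had Cpa3 (10.28), Hdc (9.58) and Gfi1b without Gata1. Irf8 and Flt3 were on together in 3 of these 18 cells, and Irf8 and Cpa3 in 0 of all 28.

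At E10.5 the S-phase median difference was 0.31 and the G2/M median 0.58, against 0.34 over all genes. Called higher were 2 of 21 S-phase genes (9.52%), among them the thymidylate synthase gene Tyms, and 1 of 21 G2/M genes (4.76%). Over all genes the share called higher was 9.55%. Against cells in the same probe-set range the S-phase and G2/M medians were 0.04 and -0.04. None of 11 housekeeping genes was called, with a median of 0.04 (-0.28 with cells moved to the same median).

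The 10 genes with the highest correlation with Gata1 over the 28 cells were Muc13 (Pearson r 0.81), Taok3 (0.80), Cpa3 (0.79), Gadd45a (0.78), Klf1 (0.78), Khk (0.76), Tcf19 (0.75), Nectin2 (0.75), Apoc1 (0.74) and Ddah2 (0.74). Gata1 had no value between 2.32 and 8.74, so r largely restates the split of the cells. The cells also differ in total signal, and r is given as a description. Khk, ketohexokinase, and Nectin2, an adhesion protein gene, were above background in 7 and 6 of 10 cells with Gata1 and in 0 of 18 without. Both thus counted as measured through the cells with Gata1 alone, as did Klf1, Rhag, Tfr2, Gp5 and Hbb-bh1. Irf8, Il6st, Ramp2, Ifitm3 and Calcrl counted through the cells without Gata1 alone.

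The same limit was applied to the E12.5 cluster cells, which did not enter the ranking of genes by difference. The E12.5 cells did enter the choice of the brightest probe set, and the lists were chosen with earlier results of these data known. At E12.5 the 6 cells with Gata1 had a median of 9257 probe sets above background and the 10 without 7457.5, a wider gap than at E10.5. The macrophage gene C1qb was above background in 1 of the 6 and 3 of the 10, and in 0 of the 28 E10.5 cells. The median over all 9139 genes was 0.86 (0.53 without the C1qb cells), with 2206 called higher (24.1%) and 265 lower (2.9%). Of the 15 genes highest at E10.5, 13 were higher with Gata1 at E12.5 as well and 11 were called, with a median of 2.51 (1.34 without the C1qb cells). Of the 15 lowest, 11 were lower and 5 called, with a median of -1.33 (-1.0).

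At E12.5 8 of 15 mast genes were called higher and 0 lower, where 24.1% of all genes were called higher and 2.9% lower. The mast median difference was 2.10 (1.81 without the C1qb cells), against 0.86 (0.53) over all genes. Cpa3 was present in 6 of 6 and 5 of 10 cells and higher by 5.81, Hdc by 5.09, Rab44 by 5.27 and Slc18a2 by 4.88. Ikzf2, which encodes the factor Helios, was higher by 5.40. The G2/M list differed more, with 18 of 21 members called higher, against 24.1% of all genes, and 0 lower. Its median was 2.96 (1.51 without the C1qb cells). The erythroid median was 0.98, close to that over all genes, and -0.00 without the C1qb cells. Klf1 was present in 2 of 6 and 2 of 10 cells and differed by 0.58 (-1.48 without the C1qb cells). On the lower side Marcks was present in 0 of 6 and 9 of 10 cells (-8.48) and Mef2c in 3 of 6 and 9 of 10 (-4.08). Lmo2 differed by -3.02 and Ncf1 by -4.25, whereas Ifitm3 was higher with Gata1 by 1.70 and Ccnd2 by 1.85. Whether the 2 stages differ in these values was not tested.

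**Figure D4:**
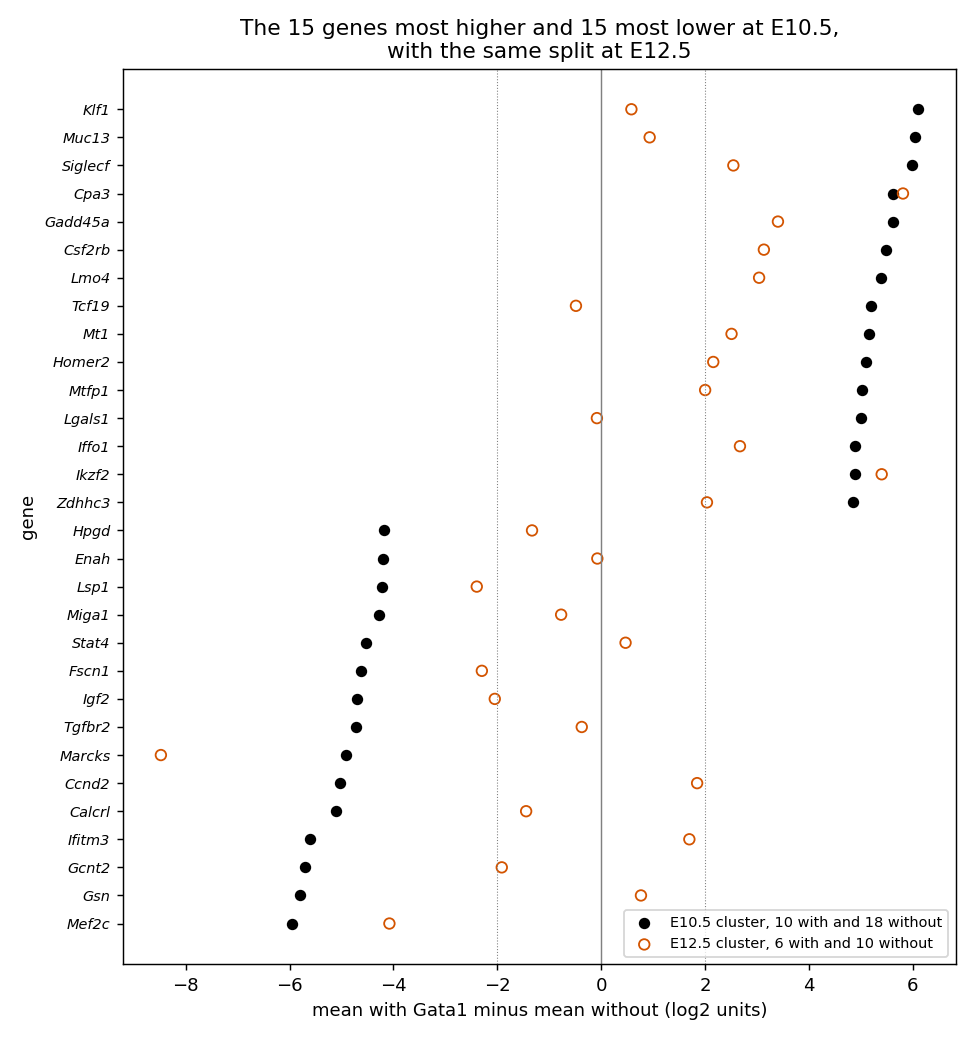
Difference in mean log2 value between cells with and without Gata1 (horizontal axis) for the 15 most positive and 15 most negative genes at E10.5 (vertical axis). Filled points are E10.5 cluster cells, open points E12.5 cluster cells, and dotted lines mark 2 log2 units each way: 13 of the 15 higher genes and 11 of the 15 lower genes lie on the same side of 0 at E12.5.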

How the data were processed

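The authors deposited log2 expression values for 45101 probe sets on 85 arrays, made with GCRMA in affy, as the submitters' processing notes name them without versions. Probe sets with 1 gene symbol in the platform annotation were used (34958; 932 had several and 9211 none listed). Each gene was read by its brightest probe set, by its mean with the 5 populations given equal weight. Fetal liver HSC cells 20 and 21 (r = 0.991) were averaged, leaving 84 cells. The background limit was log2 5, and genes above it in at least 3 of 28 cells counted as measured. Differences are mean with minus mean without Gata1, called at 2 log2 units. A list mean is a cell's mean over the measured members. Named genes are the 15 largest differences each way, of genes on in at least 50% of the cells in the higher group (without Gata1, gate and sex-linked genes), list members and the 10 genes most correlated with Gata1. The members and lists were chosen with earlier results of these data known. Sequences came from RefSeq (GRCm38.p6). The calculation was tested on simulated data. The number of arrays limits precision, and depth in reads does not apply. Alternatives covered the Gata1 limit, scaling, probe sets, filters, cells and call size. Python 3.11.15, numpy 2.4.6, pandas 2.3.3, scipy 1.17.1 and matplotlib 3.10.9 were used.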

Additional observations from a re-analysis of the deposited data

Results flagged for a closer look

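For each of the 30 genes with the largest differences, and for Gata1, 8 list means and the number of probe sets above background, the highest and lowest of the 10 cells with Gata1 were set against the others by Dixon's 95% limit. Of 40 sets of values examined 15 held a cell far from the rest, where chance gives about 1 in 20 and values near background make such gaps common. Among genes higher with Gata1, the lowest cell stood apart for Muc13 (2.71 in cell 8), Gadd45a (2.31 in cell 19), Csf2rb (6.87 in cell 5), Lmo4 (3.50 in cell 3), Mtfp1 (2.31 in cell 11), Iffo1 (4.87 in cell 16) and Ikzf2 (2.58 in cell 8). Among genes lower with Gata1, the highest cell stood apart for Gsn (10.39 in cell 8), Gcnt2 (9.29 in cell 19), Marcks (10.43 in cell 11), Igf2 (10.07 in cell 10), Stat4 (10.95 in cell 10), Lsp1 (7.32 in cell 14) and Enah (7.75 in cell 19). For Calcrl cell 8 was the lowest at 2.76, within background. Cell 8 accounts for 4 of these values and cell 19 for 3.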

How the results depend on the processing

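The Gata1 limits of log2 4 and 8 chose the same E10.5 cells. The counts of higher and lower genes, 873 and 239, were 2618 and 911 with a call at 1 log2 unit, 242 and 73 at 3, and 466 and 112 with the mean over a gene's probe sets. Lower genes numbered 363 with cells moved to the same median, 363 against cells in the same probe-set range (an alternative chosen after seeing the data, as was leaving out the C1qb cells) and 391 with the median over cells. Higher genes numbered 320 after quantile normalization and 1464 among cells with both controls at the shared value. The mast median was 1.76 after quantile normalization and 0.044 with no filter. Leaving out each cell in turn gave 764 (without cell 14) to 1070 (without cell 5) higher and 211 (without cell 26) to 282 (without cell 14) lower genes. The same ranges were 1.52 to 2.12 for the erythroid median, 0.30 to 0.58 for heme and iron, 0.09 to 0.64 for megakaryocyte, 2.48 to 3.21 for mast and -0.59 to -0.05 for myeloid genes. Of 88 named genes called, 87 kept their direction under every setting run and 40 kept the call, and Hp changed sign (0.016 with the median over cells). A kept direction can be a value near 0. The weakest value was -0.036 for Hlf, -0.043 for Irf8, -0.039 for Flt3 and 0.024 for Hbb-bh1. The count of kept directions is therefore no measure of firmness for such genes. Of the 30 extremes 30 kept the direction and 22 the call. No paired analysis was possible because the replicate numbers only name cells and the results come from no test.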
